A study of Homo sapiens with 2 samples.

Results

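The 10 genes described here encode enzymes that make, reduce, oxidise or release androgens: the reductases AKR1C1, AKR1C2, AKR1C3, SRD5A1 and SRD5A3, the 17β-hydroxysteroid dehydrogenase family members HSD17B4, HSD17B6 and HSD17B10, the 3β-hydroxysteroid dehydrogenase HSD3B1 and the steroid sulfatase STS. They were chosen by gene symbol, and all 10 were found among the 19607 genes of the expression table. The RNA came from CWR22rv1 cells, a human prostate cancer (CaP) line from a xenograft that relapsed after castration of the host. 1 library was made from Akt1/2 DKO cells (label: Akt1/2 knockout) and 1 from control cells (label: wild type), and the question was how loss of Akt1 and Akt2 changed the transcripts of these cells. Per the study's methods, the line was grown in medium with foetal bovine serum, the knockout cells received CRISPR/Cas9 plasmids against both genes and a plasmid for puromycin selection, and monoclonal cells were then isolated. The labels do not say which clone was sequenced, nor whether the control cells went through transfection, puromycin selection and cloning.

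With 1 library per genotype no difference below has a replicate check, and the effect of the knockout cannot be told apart from differences between a clone and its parent line or between 2 preparations of RNA. Depth was similar, with 9970820 estimated reads for control cells and 10718650 for Akt1/2 DKO cells. Of the targeted genes, AKT1 had 2645 control and 591 Akt1/2 DKO reads, and AKT2 had 2362 and 667 reads. Both transcripts were thus lower but still present in the library labelled Akt1/2 knockout. The paper reports the knockout from sequencing of the clones and from Western blots of Akt1 and Akt2, and RNA reads do not measure protein. All 10 luminal prostate markers had reads in both libraries (25963 and 39604 in sum, 3 at least 1.5-fold higher and 5 lower), while the basal markers KRT5 and TP63 had none and KRT14 had 2 and 0. The endothelial and blood markers had 2 and 0 reads in sum. The 5 fibroblast markers summed to 1029 and 205 reads, mostly those of VIM (897 and 84), COL3A1 (74 and 9) and COL1A1 (55 and 106), with COL1A2 at 1 and 3 and SPARC at 2 and 3.

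Prostate cells convert circulating precursors into active androgens. STS frees DHEA from its sulfate, HSD3B1 turns DHEA into androstenedione, AKR1C3 reduces androstenedione to testosterone, and the steroid 5α-reductases turn testosterone into dihydrotestosterone (DHT), the strongest natural androgen. The removal of DHT runs through AKR1C2 and AKR1C1, which reduce its 3-keto group, and HSD17B6 can turn the 3α-diol back into DHT. These reactions let prostate tumours keep a supply of androgen when the testes no longer supply it, and AKR1C3 in particular is often raised in castration-resistant disease.

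AKR1C1, AKR1C2 and AKR1C3 are neighbouring paralogs on chromosome 10, and their sequences are shown because their likeness bears on how reads could be assigned to each gene. In the annotated coding sequence of 969 bases (GENCODE release 29, GRCh38), AKR1C1 and AKR1C2 differed at 19 bases, an identity of 98.0%. AKR1C1 and AKR1C3 differed at 83 bases (91.4% identity), and AKR1C2 and AKR1C3 at 87 bases (91.0%). Coding bases 85 to 174, which lie in exon 2 of 9, hold 17 positions at which the 3 genes are not all alike, in capitals:
AKR1C1 (chr10:4965914-4966003, plus strand): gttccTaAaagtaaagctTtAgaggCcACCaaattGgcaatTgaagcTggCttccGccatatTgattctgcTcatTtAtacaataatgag
AKR1C2 (chr10:5001592-5001681, minus strand): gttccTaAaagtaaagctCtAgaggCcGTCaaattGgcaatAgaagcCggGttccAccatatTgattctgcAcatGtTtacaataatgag
AKR1C3 (chr10:5096410-5096499, plus strand): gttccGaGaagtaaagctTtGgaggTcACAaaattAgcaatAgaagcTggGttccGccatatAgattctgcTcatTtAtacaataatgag

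Within these 90 bases AKR1C1 differs from AKR1C2 at 10 positions and from AKR1C3 at 9. The stretch was chosen for this: no other of that length within a single exon holds more differences between AKR1C1 and AKR1C2. Elsewhere the genes are harder to separate. Of all stretches of 50 coding bases, 53.4% in AKR1C1, 57.1% in AKR1C2 and 20.1% in AKR1C3 also occur in at least 1 of the other 2 genes, and for stretches of 100 bases the shares are 20.3%, 26.4% and 9.77%. The deposited estimates carried decimals for these genes in the control library (117.49, 539.86 and 294.65 reads). In the Akt1/2 DKO library their estimates were whole (2, 3 and 21 reads). Of all genes, 88.9% had whole numbers in both libraries. The division of reads among the paralogs is therefore uncertain, and their sum is given beside the single values.

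Transcripts of all 3 AKR1C genes were far lower in Akt1/2 DKO cells than in control cells, whereas the other members with reads differed by at most about 1.5-fold. For 9 of the 10 members the reads of both libraries added up to 10 or more. Of these, 3 were at least 1.5-fold lower (AKR1C1, AKR1C2 and AKR1C3), 1 was at least 1.5-fold higher (STS) and 5 lay within 1.5-fold, so 44.4% passed that threshold. Across all 13318 genes that met this read minimum, 30.9% passed it, with 15% lower and 15.9% higher. The median log2 fold change was -0.47 for the 9 members, -0.09 for the 6 members outside the AKR1C family and 0.01 for all genes. The first of these is the value of HSD17B6, which had few reads, and it was -0.19 with the deposited FPKM and -0.23 with at least 10 reads required in each library. The share of changed members is thus not far above that of genes in general, and outside the AKR1C family it was 1 of 6. The AKR1C differences were large ones for these libraries. A fall of at least 10-fold was seen in 81 of 9561 genes with at least 100 control reads, or 0.847%, AKR1C1, AKR1C2 and AKR1C3 included.

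**Figure D1:**
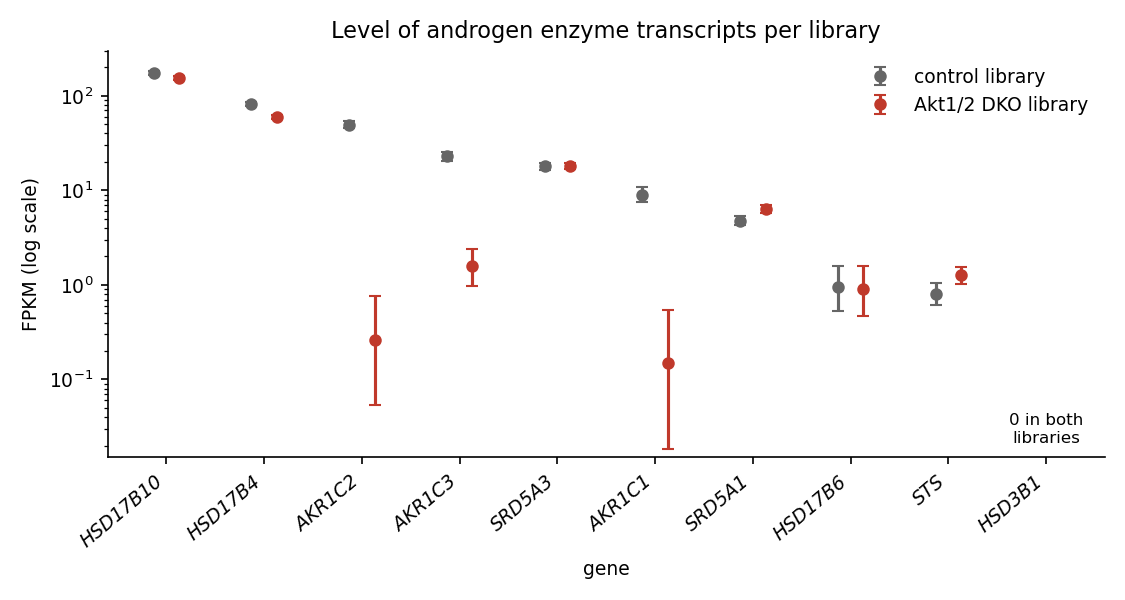
Level of each enzyme transcript in FPKM (log scale) in the control library (grey) and the Akt1/2 DKO library (red), ordered by the control level. Points are the deposited FPKM of 1 library each and bars are exact 95% intervals for counting error only. AKR1C2, AKR1C3 and AKR1C1 stand at 49.62, 22.89 and 9.04 in control cells and at 0.26, 1.57 and 0.15 in Akt1/2 DKO cells, while the other detected genes stay close to their control level.

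AKR1C2, which inactivates DHT by reducing it to the 3α-diol, showed the largest difference. It had 540 reads in control cells and 3 in Akt1/2 DKO cells, or 49.62 and 0.26 FPKM (fragments scaled by transcript length and sequencing depth). After scaling for library size it was 200-fold lower, with an exact 95% interval of 67.9 to 971 that covers counting error only, and its log2 fold change was -7.64 (-9.92 to -6.09). Among the 4444 genes with at least as many control reads, 6 had as large a fall, itself included (0.135%).

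AKR1C1, a reductase of DHT and of progesterone, had 117 control reads and 2 Akt1/2 DKO reads, or 9.04 and 0.15 FPKM. This ratio was 64.9-fold lower (17.6 to 542), and the log2 fold change was -6.02 (-9.08 to -4.13). In Akt1/2 DKO cells both AKR1C1 and AKR1C2 were at or below 3 reads, the floor used here for a count of 0. Reads were found for both, but they were few and their division among the paralogs is uncertain. Whether either transcript was still present therefore cannot be told. With every Akt1/2 DKO count below 3 reads set to 3, as large a fall was found in 35 of the 9249 genes with at least as many control reads (0.378%).

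AKR1C3, which reduces androstenedione to testosterone, had 295 control reads and 21 Akt1/2 DKO reads, or 22.89 and 1.57 FPKM. It was 15.6-fold lower (10 to 25.5), with a log2 fold change of -3.96 (-4.67 to -3.32), and 37 of the 6701 genes with at least its control reads fell as far (0.552%). It was the AKR1C gene with a level clearly above the floor in Akt1/2 DKO cells. Its interval lay above that of AKR1C2 and overlapped that of AKR1C1.

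The 3 genes together had 952 control reads and 26 Akt1/2 DKO reads, a fall of 97.5% after scaling, or 40.6-fold (27.5 to 62.5; log2 fold change -5.34, -5.97 to -4.78). This sum does not depend on how reads were divided among the 3 paralogs. In control cells AKR1C2 held 56.7% of these reads (exact binomial 95% interval 53.5 to 59.9), AKR1C3 31.0% (28.1 to 34.0) and AKR1C1 12.3% (10.3 to 14.5). In Akt1/2 DKO cells AKR1C3 held 80.8% (60.6 to 93.4), AKR1C2 11.5% (2.45 to 30.2) and AKR1C1 7.69% (0.946 to 25.1). With the deposited division of reads taken as given, the shares of AKR1C3 and AKR1C2 differed between the libraries beyond counting error, and that of AKR1C1 did not. That division is uncertain for these paralogs, which the intervals do not cover, and the Akt1/2 DKO shares rest on 26 reads. In summed FPKM of the 10 enzymes, the 3 AKR1C genes made up 22.4% in control cells (81.55 of 364.73) and 0.815% in Akt1/2 DKO cells (1.98 of 242.95). In bulk RNA, fewer cells that express a gene and less RNA in each cell cannot be told apart. The fibroblast markers VIM and COL3A1 (2 of 3 tested of that list were lower and 1, COL1A1, higher) and the luminal markers KLK3 (184 and 29 reads) and HOXB13 (2363 and 865 reads) were lower in the same library, while the luminal markers KRT8 (6408 and 12815 reads) and KRT18 (2433 and 5306 reads) were higher, and their part in the AKR1C result was not tested.

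**Figure D2:**
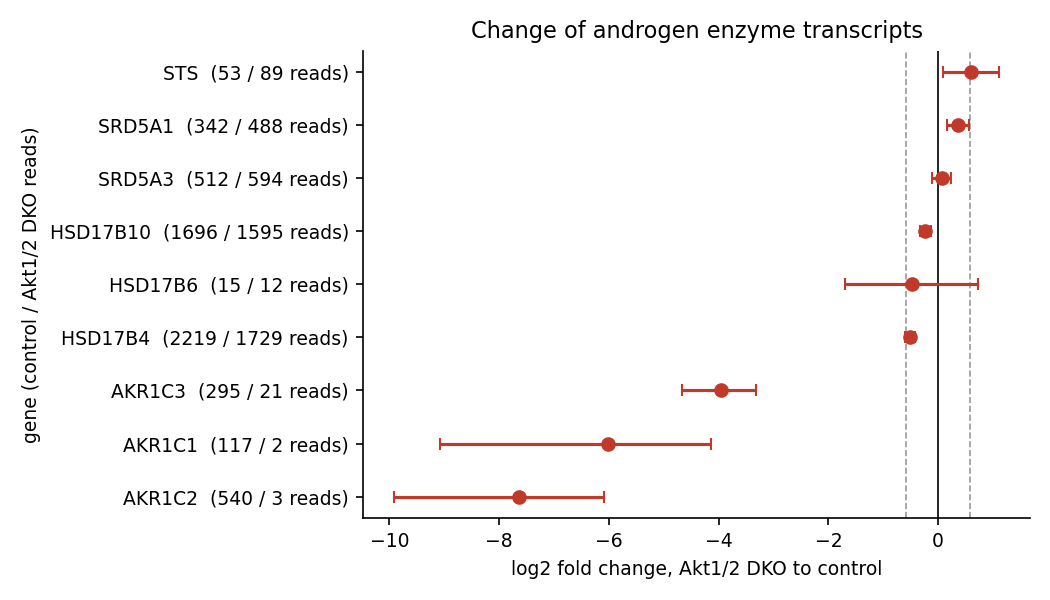
log2 fold change of each detected enzyme transcript, Akt1/2 DKO to control, with reads of both libraries beside each name. Bars are exact 95% intervals for counting error only and dashed lines mark 1.5-fold. AKR1C1, AKR1C2 and AKR1C3 lie between -7.64 and -3.96, and the other 6 genes lie between -0.51 and 0.60.

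The 5α-reductase transcripts were not lower. SRD5A1, the 5α-reductase isoenzyme that is usual in castration-resistant tumours, had 342 control and 488 Akt1/2 DKO reads, or 4.78 and 6.34 FPKM. It was 1.29-fold higher (1.12 to 1.48), a log2 fold change of 0.36 (0.16 to 0.57). SRD5A3, which is best known as the polyprenol reductase of dolichol synthesis, had 512 and 594 reads, or 17.90 and 18.15 FPKM. Its log2 fold change was 0.07 (-0.11 to 0.24), so no difference was detectable. SRD5A2, the isoenzyme of normal prostate and no member here, had no read in either library. The ratio of SRD5A3 to SRD5A1 in FPKM was 3.74 in control cells and 2.86 in Akt1/2 DKO cells.

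Of the 17β-hydroxysteroid dehydrogenases that mainly oxidise steroids, HSD17B10 and HSD17B4 were high, HSD17B6 was low, and none differed by 1.5-fold. HSD17B10, a mitochondrial enzyme that oxidises the 3α-diol and branched-chain acyl-CoAs and is also a subunit of mitochondrial RNase P, had 1696 control and 1595 Akt1/2 DKO reads, or 176.34 and 154.54 FPKM. It was 1.18-fold lower (1.10 to 1.26), a log2 fold change of -0.24 (-0.34 to -0.14). HSD17B4, the multifunctional enzyme of peroxisomal β-oxidation that also oxidises 17β-hydroxysteroids, had 2219 and 1729 reads, or 82.40 and 59.77 FPKM. It was 1.42-fold lower (1.34 to 1.52), a log2 fold change of -0.51 (-0.60 to -0.42) that is below the 1.5-fold threshold yet beyond counting error. HSD17B6, the oxidative 3α-hydroxysteroid dehydrogenase that can regenerate DHT, had only 15 and 12 reads, or 0.95 and 0.91 FPKM. Its log2 fold change was -0.47 with an interval from -1.70 to 0.72, too wide to give a direction. The level of HSD17B4, an oxidising enzyme, was 3.60 times that of AKR1C3, a reducing enzyme, in control cells and 38.1 times in Akt1/2 DKO cells, both in FPKM. Both transcripts were lower in Akt1/2 DKO cells, AKR1C3 by far the more. These are RNA levels, and steroid oxidation and reduction were not measured.

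The enzymes at the entry of the pathway were low or without reads. STS had 53 control and 89 Akt1/2 DKO reads, or 0.81 and 1.26 FPKM, 1.51-fold higher (1.07 to 2.17) with a log2 fold change of 0.60 (0.09 to 1.12). It was the only member above 1.5-fold on the higher side, and it lay at the threshold: relative to the median of its chromosome the value was 0.54, which is within 1.5-fold. HSD3B1 had no read in either library, which allows up to 0.301 CPM (the level of 3 reads, scaled to the library total) in control and 0.28 CPM in Akt1/2 DKO cells. No fold is given for it.

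In levels scaled by length, the order in control cells was HSD17B10, HSD17B4, AKR1C2, AKR1C3, SRD5A3, AKR1C1, SRD5A1, HSD17B6, STS and HSD3B1. The counting intervals of HSD17B6 and STS overlapped, and those of the other neighbours among the detected genes did not. In Akt1/2 DKO cells the order was HSD17B10, HSD17B4, SRD5A3, SRD5A1, AKR1C3, STS, HSD17B6, AKR1C2, AKR1C1 and HSD3B1. There the intervals of AKR1C3, STS and HSD17B6 overlapped, as did those of HSD17B6, AKR1C2 and AKR1C1. Among all genes with reads, AKR1C2 stood at the 86.7th percentile of FPKM in control cells and at the 12.5th in Akt1/2 DKO cells. AKR1C3 moved from the 72.2nd to the 25.1st percentile and AKR1C1 from the 50.4th to the 8.96th. HSD17B10 stayed near the top, at the 97.2nd and 96.7th.

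The genes flanking the AKR1C cluster were also lower. AKR1C1 (4963253 to 4983283, plus strand), AKR1C2 (4987400 to 5018031, minus strand) and AKR1C3 (5035354 to 5107686, plus strand) follow each other on chromosome 10 in GRCh38. The nearest tested gene before them was KLF6, a zinc finger transcription factor gene 1178 kb away, with 702 control and 210 Akt1/2 DKO reads, 3.71-fold lower (log2 fold change -1.89, -2.12 to -1.67). The nearest after them was NET1, a guanine nucleotide exchange factor gene for RhoA 305 kb away, with 1722 and 571 reads, 3.34-fold lower (log2 fold change -1.74, -1.88 to -1.60). Over the 1.68 Mb from KLF6 to NET1 the table lists 9 genes, and all 5 that were tested were at least 1.5-fold lower. These 5 are the AKR1C genes around which the stretch was drawn and KLF6 and NET1, its ends. Of all tested genes 15% were lower. The other 4 had few reads or none: AKR1C4, the liver paralog, had 2 and 0, AKR1E2 had 3 and 0, TUBAL3 had 3 and 2, and UCN3 had none.

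Among genes with at least 50 reads, those next beyond KLF6 and NET1 lay within 1.5-fold. Beyond KLF6 lay PITRM1 at -0.12 and PFKP at -0.47, and beyond NET1 lay ASB13 at 0.18 and FAM208B at 0.06 (log2 fold changes). PFKP was still lower beyond counting error (-0.68 to -0.27). Within 5 Mb of the cluster, 23 other genes had at least 50 reads, of which 16 had a negative and 7 a positive log2 fold change, with a median of -0.12 against 0.06 for chromosome 10. 4 of the 23 (17.4%) were at least 1.5-fold lower and 0 were higher, beside 15% lower and 15.9% higher of all tested genes. The tested genes needed only 10 reads. With at least 50 reads required, 1484 of 11754 genes were lower and 1535 higher. Besides KLF6 and NET1 the 4 lower genes near the cluster were KIN at -0.65 and GATA3. GATA3, a transcription factor gene, had 346 control reads and 1 Akt1/2 DKO read (-8.58, -13.9 to -6.10). PITRM1, PFKP, ASB13, FAM208B, KIN and GATA3 were singled out after their values were seen.

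**Figure D3:**
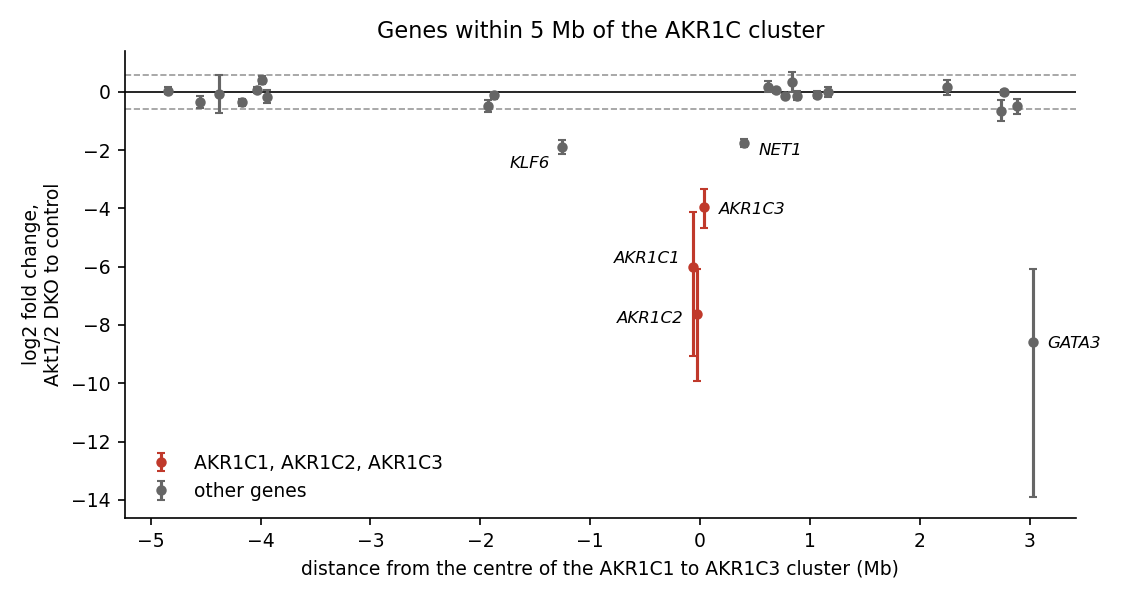
log2 fold change, Akt1/2 DKO to control, of genes with at least 50 reads by their distance in Mb from the centre of the AKR1C1 to AKR1C3 cluster. Points are genes, bars are exact 95% intervals for counting error only and dashed lines mark 1.5-fold. KLF6 (-1.89), the AKR1C genes (red) and NET1 (-1.74) lie below the dashed lines, and the next genes on either side lie within them. GATA3 lies lowest at -8.58.

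For no other member were the nearest tested genes on both sides at least 1.5-fold lower. SRD5A1 (chromosome 5, 6633343 to 6674386) lies between NSUN2 (0.21) and PAPD7 (0.07), and SRD5A3 (chromosome 4, 55346109 to 55373096) between CHIC2 (0.33) and TMEM165 (0.02). HSD17B10 (chromosome X, 53431258 to 53434373) lies between RIBC1 (-0.02) and HUWE1 (-0.07), and HSD17B6 (chromosome 12, 56752161 to 56787790) between NACA (0.14) and ZBTB39 (0.49). HSD3B1 (chromosome 1, 119507198 to 119515054) lies between WARS2 (0.21) and ZNF697 (-0.03). The values of all these neighbours lay within 1.5-fold. However, the counting intervals of CHIC2, RIBC1, ZBTB39 and ZNF697 reached past it, with only 11 and 12 reads for RIBC1 and 23 and 25 for ZNF697. HSD17B4 (chromosome 5, 119452443 to 119637199) had neighbours that moved in opposite directions, TNFAIP8 with 34 and 59 reads (0.65) and PRR16 with 171 and 78 reads (-1.28). STS (chromosome X, 7219456 to 7354810) lies between PUDP, with 108 and 182 reads (0.60), and PNPLA4, with 180 and 269 reads (0.43), and all 3 genes had positive values.

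The upstream sequences of the AKR1C genes are shown because the 3 genes moved together. Each window of 250 bases was cut to its leading bases that lie in no GENCODE exon, 88 for AKR1C1 and 84 for AKR1C2. The AKR1C3 window shown lies wholly outside exons and was cut to 88 bases. A second AKR1C3 window begins in an exon and is not shown. The AKR1C1 stretch ends where the gene begins, and those of AKR1C2 and AKR1C3 are intronic in longer annotated transcripts of these genes. Capitals mark a run of 12 bases that all 3 share:
AKR1C1 (chr10:4963165-4963252, plus strand): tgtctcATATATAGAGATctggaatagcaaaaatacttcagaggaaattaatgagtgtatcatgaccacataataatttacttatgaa
AKR1C2 (chr10:5004024-5004107, minus strand): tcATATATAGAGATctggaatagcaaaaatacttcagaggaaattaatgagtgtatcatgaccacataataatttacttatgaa
AKR1C3 (chr10:5048531-5048618, plus strand): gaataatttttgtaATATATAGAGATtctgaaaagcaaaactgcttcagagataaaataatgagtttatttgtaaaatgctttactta

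These stretches begin 250 bases upstream of the RefSeq start sites (GRCh38.p14) at 4963415, 5003857 and 5048781. Over the 250 upstream bases AKR1C1 and AKR1C2 were alike at 245 of 254 aligned positions (96.5%), and this AKR1C3 window was 71.4% identical to that of AKR1C1 and 69.6% to that of AKR1C2. These full windows reach an annotated exon after 88 bases in AKR1C1 and 84 in AKR1C2, and the second AKR1C3 window begins in one. The values below thus cover exonic bases too. All of the windows are poor in CpG. AKR1C1 had a GC content of 40.8% and AKR1C2 of 40%, each with 2 CpG dinucleotides and an observed-to-expected CpG ratio of 0.193 and 0.201. Both AKR1C3 windows in the table (GC content 32.0% and 35.6%) had 0 CpG. Over the 35116 RefSeq promoter windows the median GC content was 58% (quartiles 46.4% and 68%) and the median CpG ratio 0.558 (quartiles 0.220 and 0.845), so the AKR1C windows lay below the lower quartile for both. The windows of SRD5A1, SRD5A3, HSD17B4 and HSD17B10, whose transcripts lay within 1.5-fold, had CpG ratios of 0.895, 1.04, 0.819 and 0.848 to 0.858. HSD3B1, without reads, had 0 CpG, and the 5 windows of STS ranged from 0.106 to 0.660. HSD17B6 was not matched.

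A search of both strands found neither of 2 motifs in the AKR1C upstream windows. These were the NRF2-type antioxidant response element TGACNNNGC, present in 10.9% of all windows of that length, and the FOXO site TGTTTAC, present in 2.98%. Among the other members the NRF2-type motif was found in SRD5A3, 22 bases upstream of the start, and in a window of STS. The absence of these letters concerns these 250 bases alone, part of which lies in annotated exons for AKR1C1, AKR1C2 and the second AKR1C3 window.

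The genes that act beside these enzymes in androgen synthesis were listed apart. Of 54 such genes 17 had no read in either library, among them CYP11A1 and CYP17A1, which make DHEA from cholesterol, and HSD3B2, HSD17B2, AKR1D1, CYP19A1 and SULT2A1. Of the 27 tested, 5 were at least 1.5-fold higher and 9 lower, or 51.9%, beside 30.9% of all genes, and the median log2 fold change was -0.18. The split depended on scaling: without scaling for library size it was 8 higher and 5 lower, and with the deposited FPKM 6 and 7.

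The genes that were higher included a cholesterol carrier, dehydrogenases and steroid uptake carriers. STARD4, which moves cholesterol between membranes, had 83 control and 355 Akt1/2 DKO reads (3.86-fold higher, 3.03 to 4.96). HSD17B7, an enzyme of cholesterol synthesis, had 75 and 243 reads (2.92-fold, 2.25 to 3.84). HSD17B11, a dehydrogenase of lipid droplets, had 315 and 611 reads (1.75-fold, 1.52 to 2.01). Of the steroid uptake carriers, SLCO4A1 had 65 and 228 reads (3.16-fold) and SLCO1A2 had 0 and 20 reads. Against a floor of 3 reads SLCO1A2 was 6.01-fold higher, and the lower end of its exact interval was 4.45-fold.

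The genes that were lower included helpers of several enzymes. POR, the electron donor of microsomal cytochromes P450, had 1373 and 873 reads (1.74-fold lower), and H6PD, which supplies NADPH to HSD11B1, had 716 and 492 reads (1.61-fold). HSD11B1 itself had no read in either library. The same held for the sulfotransferase genes SULT2A1 and SULT1E1, and SULT2B1 had 1 and 0 reads. PAPSS1, which makes the sulfate donor of steroid sulfation, had 3262 and 1721 reads (2.10-fold), and SUMF1, which activates sulfatases such as STS, had 319 and 219 reads (1.61-fold). SUMF1 lies on chromosome 3, where the median log2 fold change of 666 genes was -0.53, and relative to that median its value was -0.16. Among the dehydrogenases, HSD17B12 had 620 and 436 reads (1.58-fold lower), HSD17B14 had 13 and 3 (a ratio of 4.80, 1.32 to 26.3) and RDH5 had 90 and 55 (1.81-fold). The remaining genes were the aldo-keto reductase AKR7A2, at the threshold with 805 and 594 reads (log2 fold change -0.59), and the carrier SLCO2B1 with 10 and 0 reads. Against the floor of 3 reads SLCO2B1 was 3.70-fold lower, and the lower end of its exact interval was 2.49-fold. Of the other aldo-keto reductases AKR1A1 had 410 and 649 reads and AKR7A3 70 and 113, log2 fold changes of 0.51 and 0.54, so no fall like that of the AKR1C genes was seen there.

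The members also act outside steroid metabolism, and their partners there differed in pattern. Of the 7 partners of HSD17B4 in peroxisomal β-oxidation, 4 were at least 1.5-fold lower and 0 higher, beside 15% of all genes lower, with a median log2 fold change of -0.61. Over all 13 tested partner genes these 4 make up 30.8%, close to the 30.9% of all genes past the threshold in either direction. The count is 3, without SCP2, under total counts, upper-quartile factors or no scaling. AMACR, a racemase of branched-chain acyl-CoAs and a common marker of prostate cancer, had 394 control and 116 Akt1/2 DKO reads (3.77-fold lower, 3.05 to 4.67). The oxidase gene ACOX2 had 48 and 14 reads (log2 fold change -1.93), the thiolase gene ACAA1 1203 and 600 (2.22-fold) and SCP2, a sterol carrier and thiolase gene, 1139 and 828 (1.53-fold). ACOX2 and ACAA1 lie on chromosome 3, and relative to its median their log2 values were -1.39 and -0.62. The other 3 lay within 1.5-fold, among them ACOX3 at -0.35 and EHHADH, with 16 and 15 reads, at -0.24. The partners of HSD17B10 in mitochondrial RNase P were at -0.37 for TRMT10C and 0.04 for the catalytic subunit, listed as KIAA0391. EHHADH and TRMT10C also lie on chromosome 3, and relative to its median their log2 values were 0.29 and 0.16. The 4 dolichol synthesis genes that work with SRD5A3 (DHDDS, NUS1, DOLK and DOLPP1) lay between -0.13 and 0.19.

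**Figure D4:**
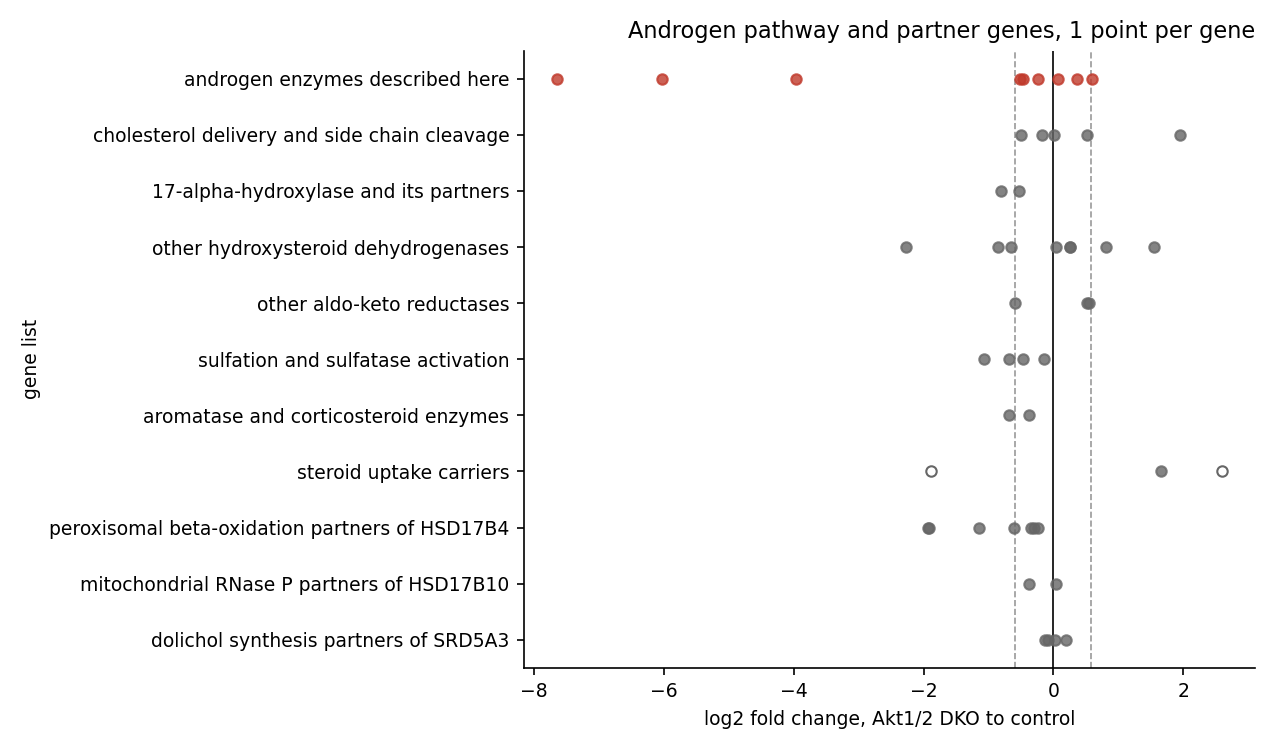
log2 fold change, Akt1/2 DKO to control, of the tested enzymes, other androgen pathway genes and partner genes, by gene list (1 point per gene). Dashed lines mark 1.5-fold, and open points are genes with 0 reads in 1 library, which was set to a floor of 3 reads. The 3 AKR1C genes lie at -7.64 to -3.96, and the lowest gene of the pathway and partner lists shown lies at -2.26.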

How the data were processed

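RNA of 1 Akt1/2 DKO and 1 control library was analysed, grouped by the genotype label. Per gene, the authors deposited an estimated count without normalization and an FPKM value. The submitters' processing notes name fastp 0.20.0, TopHat, Cufflinks, edgeR and the build GRCh38.p10, without versions of the other tools or their order. Strandedness and how reads shared by paralogs were counted are not given in the sources used here. The deposited table's own fold changes, p-values and FDR were not used.

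Each estimate was rounded to a whole number. Genes whose reads in both libraries added up to 10 or more were tested (13318 of 19607). TMM scaling (edgeR 4.0.16, R 4.3.3) gave an Akt1/2 DKO library size of 1.11 times that of control. Exact (Clopper-Pearson, 95%) intervals came from scipy 1.17.1 and cover counting error only. No p-value is given, as there is 1 library per group. A library with 0 reads was set to a floor of 3 reads, or 0.301 CPM in control and 0.28 CPM in Akt1/2 DKO, and no fold is given where both libraries were at or under it. Positions are from GENCODE release 29 (19571 IDs matched) and upstream sequences from RefSeq (GRCh38.p14). The fold computation was tested on simulated data.

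The genes named are the 10 members, AKT1, AKT2, the listed pathway and partner genes that differed at least 1.5-fold, and the nearest tested gene on either side of each member. Others were named after their values were seen, and some results are not reported here. The members and gene lists were chosen with earlier results of these data known. Alternatives were total counts, DESeq2 1.42.0 size factors, upper-quartile factors, no scaling, the authors' FPKM, centring on chromosome medians, a prior count of 1, other read filters, a 2-fold threshold and an interval that excludes no change.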

Additional observations from a re-analysis of the deposited data

How the results depend on the processing

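AKR1C1, AKR1C2 and AKR1C3 remained at least 1.5-fold lower under every alternative that tested them, and their summed log2 fold change ranged from -5.40 (centred on chromosome medians) to -5.19 (no scaling). With at least 10 reads required in each library, 2 members passed 1.5-fold (STS higher, AKR1C3 lower), because AKR1C1 and AKR1C2 left the test through their 2 and 3 Akt1/2 DKO reads. STS was within the threshold when centred on chromosome medians and at 2-fold. At 2-fold, 2390 genes passed (1332 higher, 1058 lower) in place of 4117 (2120 and 1997), and 7 of the other pathway genes (4 higher, 3 lower) in place of 14. Without scaling, 2708 genes were higher and 1556 lower. Of 63 values of single members under the alternatives, 61 stayed within their counting interval, 0 reversed and 2 moved, both without scaling: HSD17B4 to -0.36 and HSD17B10 to -0.09. Genes with an FPKM of 0 in 1 library gave no FPKM fold and were left out there. No paired analysis was possible because only 1 library was made per genotype, and leaving out a library was not possible for the same reason. Depth limits the values of AKR1C1, AKR1C2, HSD17B6, HSD17B14 and HSD3B1.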
